A study of Arabidopsis thaliana with 12 samples.

Results

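A set of 9 genes known from the response of plants to sugar and starvation were followed through a small RNA data set of Arabidopsis thaliana, out of 30926 genes counted. The 9 genes were TPS5 (AT4G17770), TPS8 (AT1G70290), TPS9 (AT1G23870), TPS10 (AT1G60140), TPS11 (AT2G18700), FBA5 (AT4G26530), BT2 (AT3G48360), ASN1 (AT3G47340) and bZIP11 (AT4G34590). The set was chosen on measured values: TPS8, FBA5 and BT2 regain small RNA in the rdr6-11 ein5-1 ski2-3 mutant relative to the ein5-1 ski2-3 mutant, and the other 6 genes joined them for their roles. The regain is therefore given as a description, with no test. For TPS8, FBA5 and BT2 every comparison that involves ein5-1 ski2-3 or rdr6-11 ein5-1 ski2-3 is a description as well. Of the 9 genes, 6 passed a filter on low counts and could be tested: all 6 between rdr6-11 and Col-0, and TPS5, TPS9 and bZIP11 in every comparison except the one of the rule. TPS10, TPS11 and ASN1 did not pass it and were not tested.

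Small RNA of less than 200 nt was sequenced from the aerial parts of 18-day-old plants, with 3 biological replicates of each of 4 genotypes. The genotypes were the triple mutant rdr6-11 ein5-1 ski2-3, the mutant ein5-1 ski2-3, the mutant rdr6-11, and the wild type Col-0. EIN5 is the cytoplasmic exonuclease that degrades mRNA from its 5′ end, SKI2 is a helicase that feeds mRNA into the exosome at its 3′ end, and RDR6 copies RNA into the precursors of secondary siRNA. The values are read counts per gene without read length or strand, so that siRNA and fragments of the mRNA are summed in each gene.

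Sugar signalling in plants sets growth against the supply of carbon. The kinase SnRK1 is active when sugar runs short and induces starvation genes, while trehalose 6-phosphate reports that sucrose is plentiful. TPS5 and TPS8 to TPS11 belong to the class II trehalose-phosphate synthase proteins, which resemble the enzyme of trehalose 6-phosphate synthesis and are used as sugar-response markers. TPS8, TPS9, TPS10 and TPS11 mRNA is known to be induced by starvation and TPS5 mRNA by sugar. FBA5 encodes a cytosolic fructose-bisphosphate aldolase, an enzyme of glycolysis. BT2 encodes a BTB and TAZ domain scaffold protein whose mRNA is repressed by sugar. ASN1 encodes the asparagine synthetase induced in darkness, and bZIP11 encodes a group S1 transcription factor that activates ASN1 and whose translation is repressed by sucrose.

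Several of these genes are close relatives, and the longest stretches of coding exon that they share show where a short read cannot tell them apart. The sequences below were read from the RefSeq TAIR10.1 assembly and are written 5′ to 3′ along the gene; every base is common to both genes, so none is in capitals. The FBA5 and FBA7 run covers 39 bases at chr4:13392255-13392293 in FBA5 and chr4:13389382-13389420 in FBA7, both on the + strand. The TPS8 and TPS9 run covers 32 bases at chr1:26471485-26471516 on the - strand in TPS8 and chr1:8435258-8435289 on the + strand in TPS9. The TPS8 and TPS11 run covers 26 bases at chr1:26473261-26473286 on the - strand in TPS8 and chr2:8109814-8109839 on the + strand in TPS11.
FBA5 and FBA7: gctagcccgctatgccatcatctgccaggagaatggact
TPS8 and TPS9: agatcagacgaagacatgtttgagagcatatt
TPS8 and TPS11: aggcatttcttgtcttgttgtagtag
Over all exons, the share of 21-base windows that also occur elsewhere in the genome was 5.52% for FBA5, 2.34% for TPS10, 1.63% for bZIP11 and 1.59% for TPS8. It was 0.51% for BT2 and 0.36% for TPS5, the lowest of the 9. FBA5 (chr4:13390754-13393265, + strand, 4 exons) begins inside FBA7, its neighbour on the same strand, and shares 109 bases with it. TPS5 (chr4:9876172-9880386, + strand) overlaps the antisense gene AT4G17780 by 128 bases, and ASN1 (chr3:17437840-17441431, - strand) overlaps the antisense gene AT3G47341 by 11 bases. Reads of overlapping genes on opposite strands could not be told apart in these counts. The 12 counts of bZIP11 (chr4:16521861-16523230, + strand, 1 exon) were identical to those of the table entry AT4G34588, so that reads of bZIP11 may have been counted for both.

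The promoters of TPS8 and BT2, 2 of the genes chosen together for their regain, are shown for the motifs of sugar and light response found in them. The 250 bases before the annotated start of TPS8 (chr1:26474834-26475083, - strand) hold GATAAG, the I-box core, in 2 places, and those of BT2 (chr3:17910739-17910988, - strand) hold TATCCA, an element of sugar-starved promoters in rice, in 1 place; the capitals mark these matches.
TPS8 promoter: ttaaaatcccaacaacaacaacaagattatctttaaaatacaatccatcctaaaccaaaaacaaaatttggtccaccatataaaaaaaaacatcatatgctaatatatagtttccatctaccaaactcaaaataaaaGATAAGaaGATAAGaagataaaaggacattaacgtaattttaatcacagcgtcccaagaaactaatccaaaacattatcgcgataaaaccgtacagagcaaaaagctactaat
BT2 promoter: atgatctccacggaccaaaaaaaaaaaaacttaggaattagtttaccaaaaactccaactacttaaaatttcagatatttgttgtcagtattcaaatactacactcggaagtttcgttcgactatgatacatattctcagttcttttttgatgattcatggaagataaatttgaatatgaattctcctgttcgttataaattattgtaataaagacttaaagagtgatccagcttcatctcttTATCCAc
Both strands were searched, and the reverse of GATAAG can share 4 bases with TATCCA. Among 27443 promoters of the same length, 12.3% held GATAAG and 13.6% held TATCCA, against 5 of the 9 genes for each. The G-box CACGTG was found in 1 of the 9 (ASN1) and 6.5% of all promoters. The element ACTCAT, which group S1 factors bind in the ProDH1 promoter, was found in 1 of the 9 (TPS5) and 12.3% of all, and the evening element AAAATATCT in 1 of the 9 (FBA5) and 2.4% of all. The FBA5 window lies within FBA7 and is not shown, and the ASN1 window overlaps the gene AT3G47341. Both FBA5 and ASN1 are among the 5 genes with GATAAG and the 5 with TATCCA. These matches describe the letters in the windows only.

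The libraries held 2358724 to 2909767 counts each. The 9 genes together received 158 to 166 counts in rdr6-11 ein5-1 ski2-3, 108 to 118 in ein5-1 ski2-3, 89 to 111 in rdr6-11 and 60 to 73 in Col-0, so that counting error was large for each of them. Replicates 1 and 2 of ein5-1 ski2-3 differed by about the sampling noise over protein-coding genes (mean chi-square per gene 1.02) and were counted as 1 sample, which leaves 2 samples for that genotype. Small RNA on the mutated genes was too sparse to check the labels: RDR6 had 0 to 2 counts in rdr6-11 ein5-1 ski2-3, 3 to 5 in ein5-1 ski2-3, 0 to 1 in rdr6-11 and 1 to 3 in Col-0, and EIN5 and SKI2 had at most 7 in any library. Leaf marker genes (RBCS1A, RCA and CAB1) had 1257 to 1843 counts in sum per library. Of 4 root markers, the 3 counted had 15 to 21 counts in sum in rdr6-11 ein5-1 ski2-3, 34 to 47 in ein5-1 ski2-3, 3 to 6 in rdr6-11 and 2 to 3 in Col-0, and 4 floral organ markers had at most 3. Levels below are CPM, the counts scaled to a common library size after TMM normalisation. Small RNA counts on marker genes are not their mRNA levels and are not read as amounts of a tissue. In such bulk tissue, fewer cells of a type and less RNA per cell cannot be told apart.

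BT2, TPS8 and FBA5 regained small RNA in the triple mutant, which was the reason for the choice, and they differed in where the regain ended. BT2 had 65, 74 and 53 counts in rdr6-11 ein5-1 ski2-3, 19, 15 and 11 in ein5-1 ski2-3, 48, 28 and 48 in rdr6-11, and 24, 19 and 26 in Col-0. Its level averaged 24.2 ± 3.8 CPM in rdr6-11 ein5-1 ski2-3 (SD, n = 3), 3.90 ± 1.27 in ein5-1 ski2-3 (n = 2), 14.8 ± 4.5 in rdr6-11 (n = 3) and 11.5 ± 0.9 in Col-0 (n = 3). All triple mutant libraries were above all others, and the ein5-1 ski2-3 libraries were the lowest, while rdr6-11 and Col-0 overlapped. BT2 was 5.80-fold higher in rdr6-11 ein5-1 ski2-3 than in ein5-1 ski2-3 (log2 change 2.54 ± 0.24, SE) and 2.09-fold higher than in Col-0 (1.06 ± 0.22).

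TPS8 had 31, 29 and 42 counts in rdr6-11 ein5-1 ski2-3, 13, 10 and 8 in ein5-1 ski2-3, 18, 15 and 18 in rdr6-11, and 10, 11 and 6 in Col-0. Its level was 12.9 ± 2.7 CPM in rdr6-11 ein5-1 ski2-3, 2.71 ± 0.75 in ein5-1 ski2-3, 6.06 ± 0.82 in rdr6-11 and 4.61 ± 1.64 in Col-0. As for BT2, the triple mutant libraries stood above all others. Unlike BT2, TPS8 overlapped between ein5-1 ski2-3 and Col-0, with a log2 change of -0.66 ± 0.38. That change turned to 0.17 when libraries were scaled to total counts. TPS8 was 4.44-fold higher in rdr6-11 ein5-1 ski2-3 than in ein5-1 ski2-3 (log2 change 2.15 ± 0.28) and 2.82-fold higher than in Col-0 (1.50 ± 0.29).

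FBA5 had 20, 16 and 24 counts in rdr6-11 ein5-1 ski2-3, 5, 5 and 4 in ein5-1 ski2-3, 15, 24 and 15 in rdr6-11, and 16, 14 and 18 in Col-0. Its level was 7.58 ± 1.57 CPM in rdr6-11 ein5-1 ski2-3, 1.25 ± 0.23 in ein5-1 ski2-3, 6.36 ± 1.58 in rdr6-11 and 8.05 ± 0.46 in Col-0. Only ein5-1 ski2-3 stood apart among these 4 genotypes, and the other genotypes overlapped. The log2 change was -2.60 ± 0.38 in ein5-1 ski2-3 relative to Col-0, 2.51 ± 0.37 in rdr6-11 ein5-1 ski2-3 relative to ein5-1 ski2-3, and -0.09 ± 0.28 in rdr6-11 ein5-1 ski2-3 relative to Col-0. FBA7, the cytosolic aldolase gene that overlaps FBA5, had 13, 11 and 15 counts in rdr6-11 ein5-1 ski2-3, 5, 4 and 6 in ein5-1 ski2-3, 5, 8 and 9 in rdr6-11, and 4, 6 and 5 in Col-0. On the scaled level, FBA7 was at 4.93 ± 0.79 CPM in rdr6-11 ein5-1 ski2-3, 1.45 ± 0.26 in ein5-1 ski2-3, 2.61 ± 0.74 in rdr6-11 and 2.55 ± 0.71 in Col-0, so that, as for FBA5, ein5-1 ski2-3 was the lowest genotype, without overlap with Col-0, while the raw counts of FBA7 in ein5-1 ski2-3 lay in the range of Col-0.

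**Figure D1:**
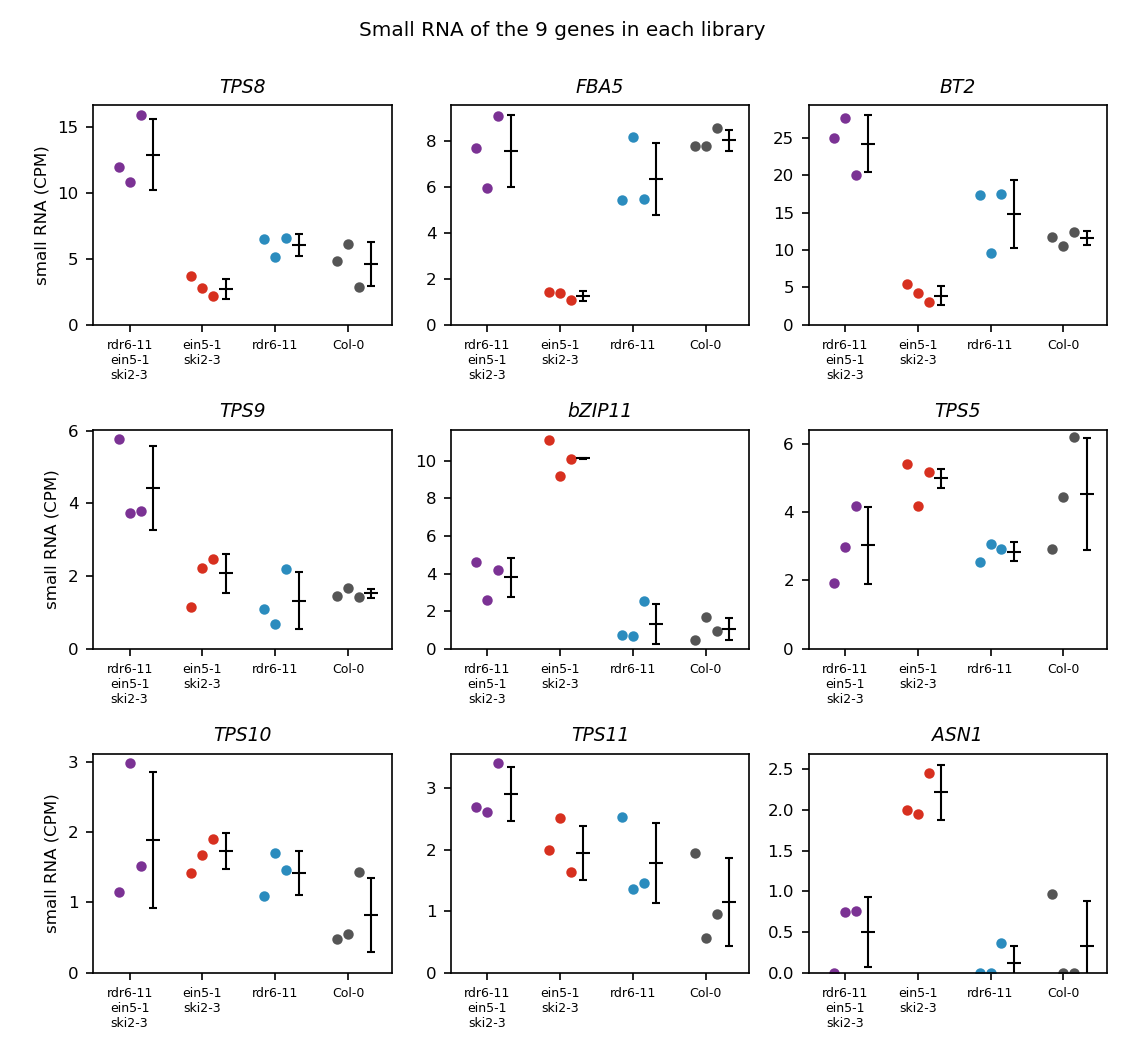
Small RNA level of each of the 9 genes (CPM, vertical axis from 0, own scale for each gene) in the 3 libraries of each genotype (points), with the mean ± SD over samples (bars; replicates 1 and 2 of ein5-1 ski2-3 count as 1 sample). BT2 and TPS8 were highest in rdr6-11 ein5-1 ski2-3, at 24.2 and 12.9 CPM, FBA5 was lowest in ein5-1 ski2-3, at 1.25 CPM, and bZIP11 was highest there, at 10.12 CPM.

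The leaf markers, like FBA5 and BT2, were lower in ein5-1 ski2-3 than in Col-0. Their summed level was 654 to 691 CPM in rdr6-11 ein5-1 ski2-3, 388 to 442 in ein5-1 ski2-3, 458 to 544 in rdr6-11 and 728 to 788 in Col-0, and all 3 of the 3 markers were lower in ein5-1 ski2-3 than in Col-0 (edgeR quasi-likelihood test, Benjamini-Hochberg adjusted p under 0.05). The log2 change of RBCS1A was -1.07 ± 0.11 (adjusted p = 1.65e-12) and that of CAB1 was -0.44 ± 0.11 (adjusted p = 0.000571), which turned to 0.38 with total count scaling and to 0.06 with scaling to MIR genes. All 3 were also called lower in rdr6-11 than in Col-0 and higher in rdr6-11 ein5-1 ski2-3 than in rdr6-11, and 0 of 3 were called between rdr6-11 ein5-1 ski2-3 and Col-0; the calls in rdr6-11 were lost with total count scaling. Neither FBA5 nor BT2 was called in rdr6-11 relative to Col-0. The part of the leaf markers in the values of FBA5 and BT2 was not tested.

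The authors' deposited table holds fold values of ein5-1 ski2-3 over rdr6-11 ein5-1 ski2-3. In the authors' deposited table this fold was 0.169 for BT2, 0.168 for FBA5 and 0.219 for TPS8, and 2.60 for bZIP11. The authors' deposited table gives a fold of ein5-1 ski2-3 over Col-0 of 0.352 for BT2, 0.157 for FBA5, 0.607 for TPS8 and 9.42 for bZIP11. All these folds come from the same counts as the values above. They include the comparison used to choose BT2, FBA5 and TPS8, so their likeness to those values adds no support.

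Loss of RDR6 with mRNA decay intact left no called change in these genes. Of the 9 genes, 6 passed the filter on low counts, and 0 of these 6 were called between rdr6-11 and Col-0 in the edgeR test, against 36.6% of the 7219 genes tested; 0 of 6 were also under an unadjusted p of 0.05, and DESeq2 called 0. The log2 change was 0.34 ± 0.24 for BT2 (edgeR adjusted p = 0.269), 0.41 ± 0.34 for TPS8 (0.367), -0.33 ± 0.29 for FBA5 (0.383) and -0.67 ± 0.40 for TPS5 (0.197). For bZIP11 it was 0.36 ± 0.70 (0.733) and for TPS9 -0.21 ± 0.65 (0.842). Libraries overlapped between rdr6-11 and Col-0 for all 9 genes. Scaling to total counts called BT2 (0.82, adjusted p = 0.00951) and TPS8 (0.88, 0.0379) higher, scaling to MIR genes called FBA5 (-1.09, 0.00435) and TPS5 (-1.42, 0.00678) lower, and BT2 was called without rdr6-11 replicate 2 (0.62, 0.0379).

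bZIP11 ran opposite to BT2 and FBA5 in ein5-1 ski2-3 relative to Col-0. It had 12, 7 and 11 counts in rdr6-11 ein5-1 ski2-3, 39, 33 and 37 in ein5-1 ski2-3, 2, 2 and 7 in rdr6-11, and 1, 3 and 2 in Col-0. Its level was 3.80 ± 1.05 CPM in rdr6-11 ein5-1 ski2-3, 10.12 ± 0.05 in ein5-1 ski2-3, 1.32 ± 1.07 in rdr6-11 and 1.04 ± 0.60 in Col-0. The SD of 0.05 rests on 2 samples, 1 of them a sum of libraries. The single ein5-1 ski2-3 libraries were at 11.1, 9.21 and 10.1 CPM. On the CPM scale the ein5-1 ski2-3 libraries were the highest, the triple mutant libraries came next without overlap, and rdr6-11 and Col-0 overlapped. The gap between the triple mutant and rdr6-11 rested on scaling. Triple mutant replicate 2 and rdr6-11 replicate 3 both had 7 raw counts, at 2.61 and 2.55 CPM. bZIP11 rose 9.69-fold in ein5-1 ski2-3 relative to Col-0 (log2 change 3.28 ± 0.43, edgeR adjusted p = 8.36e-09), and remained called under all 22 alternative settings tried. It passed the filter through ein5-1 ski2-3 and the triple mutant alone, where it was high, so its call adds no support for a change in the set.

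In rdr6-11 ein5-1 ski2-3, bZIP11 rose 3.65-fold relative to Col-0 (log2 change 1.87 ± 0.56, edgeR adjusted p = 0.0114) and 2.85-fold relative to rdr6-11 (1.51 ± 0.47, adjusted p = 0.00831). Relative to ein5-1 ski2-3 its log2 change was -1.41 ± 0.29, which was not tested. The call relative to Col-0 ended in the fit that left out Col-0 replicate 1 (adjusted p = 0.0834), without triple mutant replicate 1 (0.0504) and in DESeq2 (0.0755); the call relative to rdr6-11 was lost without rdr6-11 replicate 1 (0.0507) or 2 (0.0620) and in DESeq2 (0.0503). SHR and SCR, the 2 of 4 root markers tested, both rose in ein5-1 ski2-3 relative to Col-0 (edgeR adjusted p = 1.86e-07 and 0.000171). SHR had 10, 14 and 9 counts in rdr6-11 ein5-1 ski2-3, 28, 20 and 20 in ein5-1 ski2-3, 2, 2 and 4 in rdr6-11, and 1, 0 and 1 in Col-0, while WOX5 had 0 to 2 counts in any library. The root markers in sum were in the same order of genotypes as bZIP11, at 5.77 to 7.83 CPM in rdr6-11 ein5-1 ski2-3, 9.49 to 13.4 in ein5-1 ski2-3, 1.08 to 2.19 in rdr6-11 and 0.95 to 1.67 in Col-0. That sum came mostly from SHR and SCR, and it is small RNA, not an amount of root tissue. SHR and SCR passed the filter only through genotypes without the decay factors, where they were high. The part of the root markers in the bZIP11 values was not tested.

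Of the 3 genes that could be tested in the comparison of ein5-1 ski2-3 with Col-0 (TPS5, TPS9 and bZIP11), 1 was called, against 49.3% of all genes tested. In the comparison of rdr6-11 ein5-1 ski2-3 with Col-0, 2 of 3 were called (TPS9 and bZIP11), against 18.3% of all genes. In the comparison of rdr6-11 ein5-1 ski2-3 with rdr6-11, the same 2 of 3 were called, against 45.6%. Each of these comparisons shares a genotype with another, and counts over 3 genes that passed through the groups where they were high are not read as a result about the set.

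TPS9, which shares the longest run of coding sequence with TPS8 among the 5 TPS genes, was highest in the triple mutant. It had 15, 10 and 10 counts in rdr6-11 ein5-1 ski2-3, 4, 8 and 9 in ein5-1 ski2-3, 3, 2 and 6 in rdr6-11, and 3, 3 and 3 in Col-0. Its level was 4.43 ± 1.16 CPM in rdr6-11 ein5-1 ski2-3, 2.07 ± 0.54 in ein5-1 ski2-3, 1.32 ± 0.78 in rdr6-11 and 1.52 ± 0.13 in Col-0. The triple mutant libraries did not overlap with any other genotype, and ein5-1 ski2-3 differed from Col-0 by less than the error (log2 change 0.37 ± 0.58, edgeR adjusted p = 0.618). TPS9 rose 3.32-fold in rdr6-11 ein5-1 ski2-3 relative to rdr6-11 (1.73 ± 0.48, adjusted p = 0.00301) and 2.87-fold relative to Col-0 (1.52 ± 0.51, adjusted p = 0.0275). It passed the filter through the triple mutant alone, where it was high, so its calls add no support for a change in the set. Without a filter the edgeR adjusted p was 0.0126 relative to rdr6-11 and 0.0721 relative to Col-0. The call relative to Col-0 was also lost in DESeq2 (0.142), without rRNA, tRNA and organelle genes (0.0690), without Col-0 replicate 1 (0.0879), 2 (0.0586) or 3 (0.0913) and without triple mutant replicate 1 (0.139).

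TPS5, the sugar-induced member, did not follow TPS8 and TPS9. It had 5, 8 and 11 counts in rdr6-11 ein5-1 ski2-3, 19, 15 and 19 in ein5-1 ski2-3, 7, 9 and 8 in rdr6-11, and 6, 8 and 13 in Col-0. Its level was 3.02 ± 1.12 CPM in rdr6-11 ein5-1 ski2-3, 4.99 ± 0.27 in ein5-1 ski2-3, 2.84 ± 0.28 in rdr6-11 and 4.52 ± 1.64 in Col-0. The ein5-1 ski2-3 samples were above those of the triple mutant and rdr6-11, and Col-0 overlapped with every genotype. The log2 change in the triple mutant relative to ein5-1 ski2-3 was -0.70 ± 0.35 and was not tested. The log2 change was 0.12 ± 0.35 in ein5-1 ski2-3 (edgeR adjusted p = 0.789) and -0.58 ± 0.40 in the triple mutant (0.383), each relative to Col-0, and 0.09 ± 0.41 in the triple mutant relative to rdr6-11 (0.872). In ein5-1 ski2-3 the raw counts of TPS5 were above those of Col-0, and scaling to total counts called it higher (0.95, adjusted p = 0.0134); scaling to MIR genes called it higher in the triple mutant than in rdr6-11 (1.46, adjusted p = 0.00307).

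**Figure D2:**
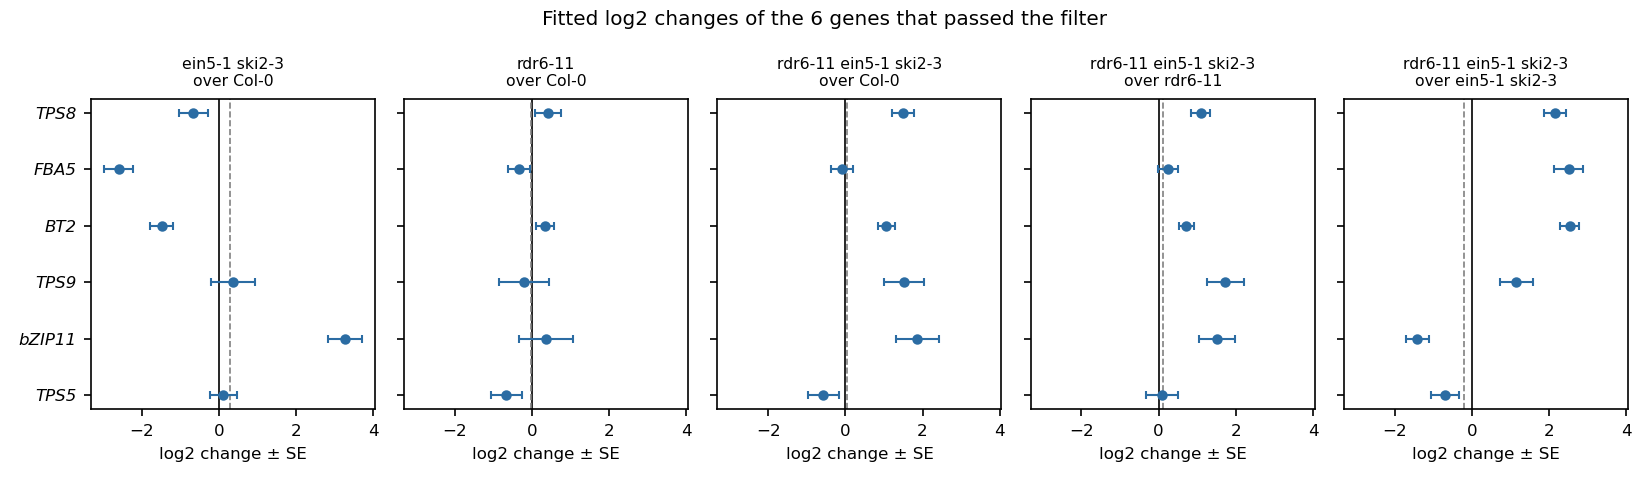
Log2 change ± SE (points and bars) of the 6 genes that passed the filter on low counts, in 5 comparisons of genotypes; the solid line marks 0 and the dashed line the median of all 7219 genes. In ein5-1 ski2-3 over Col-0, bZIP11 was at 3.28 and FBA5 at -2.60, and in the comparison used to choose the genes, rdr6-11 ein5-1 ski2-3 over ein5-1 ski2-3, BT2 was at 2.54 and bZIP11 at -1.41.

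TPS10, TPS11 and ASN1 did not pass the filter and were not tested. TPS10 had 3, 8 and 4 counts in rdr6-11 ein5-1 ski2-3, 5, 6 and 7 in ein5-1 ski2-3, 3, 5 and 4 in rdr6-11, and 1, 1 and 3 in Col-0. TPS11 had 7, 7 and 9 counts in rdr6-11 ein5-1 ski2-3, 7, 9 and 6 in ein5-1 ski2-3, 7, 4 and 4 in rdr6-11, and 4, 1 and 2 in Col-0. The level of TPS10 was 1.88 ± 0.97 CPM in rdr6-11 ein5-1 ski2-3, 1.73 ± 0.25 in ein5-1 ski2-3, 1.42 ± 0.31 in rdr6-11 and 0.824 ± 0.526 in Col-0. That of TPS11 was 2.90 ± 0.44 CPM in rdr6-11 ein5-1 ski2-3, 1.95 ± 0.44 in ein5-1 ski2-3, 1.78 ± 0.65 in rdr6-11 and 1.15 ± 0.72 in Col-0. For both genes the mean was lowest in Col-0. On the CPM scale the triple mutant libraries of TPS11 lay just above all others, at 2.61 or more against 2.53 in rdr6-11 replicate 1. The raw counts of TPS11 overlapped between the triple mutant and both ein5-1 ski2-3 and rdr6-11. The triple mutant libraries of TPS10 overlapped with every other genotype.

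ASN1 had 0, 2 and 2 counts in rdr6-11 ein5-1 ski2-3, 7, 7 and 9 in ein5-1 ski2-3, 0, 0 and 1 in rdr6-11, and 2, 0 and 0 in Col-0. All ein5-1 ski2-3 libraries were above every library of the other genotypes. The ratio of summed, scaled counts of ein5-1 ski2-3 to Col-0 was 6.36, with a 95% counting interval of 1.57 to 55.7, from 23 against 2 counts; the interval covers counting error only. Between rdr6-11 ein5-1 ski2-3 and Col-0 the ratio was 1.50, with an interval of 0.215 to 16.6, so that a difference was not detectable at this depth. As for bZIP11, ein5-1 ski2-3 was the highest genotype for ASN1.

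Compared per kilobase of exon, BT2 had the highest level of the 9 genes in 3 of 4 genotypes. In rdr6-11 ein5-1 ski2-3 it was at 9.24 ± 1.46 CPM per kb, followed by TPS8 at 3.85 ± 0.80, FBA5 at 3.42 ± 0.71 and bZIP11 at 2.77 ± 0.77 CPM per kb. In ein5-1 ski2-3 bZIP11 led at 7.39 ± 0.03 CPM per kb, followed by BT2 at 1.49 ± 0.48 and TPS5 at 1.47 ± 0.08. The SD values of this genotype rest on 2 samples. In rdr6-11 BT2 was at 5.64 ± 1.73 CPM per kb, FBA5 at 2.87 ± 0.71 and TPS8 at 1.81 ± 0.25. In Col-0 BT2 was at 4.40 ± 0.35 CPM per kb and FBA5 at 3.63 ± 0.21, with TPS8 at 1.38 ± 0.49 and TPS5 at 1.33 ± 0.48, which did not differ beyond their spread.

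The direction of some changes depended on how libraries were scaled, because the median of all genes moved with the scaling. Between ein5-1 ski2-3 and Col-0 this median was 0.29 on the log2 scale with TMM, 1.11 with total counts and 0.72 with MIR genes, and the share of called genes that were higher was 61.9%, 95.1% and 85.6% in the same order. Between rdr6-11 and Col-0 the median was -0.01, 0.45 and -0.77, and the share 58.3%, 84.6% and 1.8%. Between rdr6-11 ein5-1 ski2-3 and Col-0 the median was 0.03, 0.41 and 0.65, with 48%, 86.7% and 95.4% higher, and between rdr6-11 ein5-1 ski2-3 and rdr6-11 it was 0.12, 0.03 and 1.50, with 44.7%, 37.5% and 99.7% higher. FBA5 and BT2 kept a negative log2 change in ein5-1 ski2-3 relative to Col-0 under all 22 alternatives, from -3.03 to -1.77 and from -2.14 to -0.64. BT2, TPS8 and FBA5 stayed positive in rdr6-11 ein5-1 ski2-3 relative to ein5-1 ski2-3 under all 22, with lowest values of 2.09, 1.70 and 2.06. These genes were chosen on that regain and the alternatives reuse the same libraries, so the kept signs add no support.

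**Figure D3:**
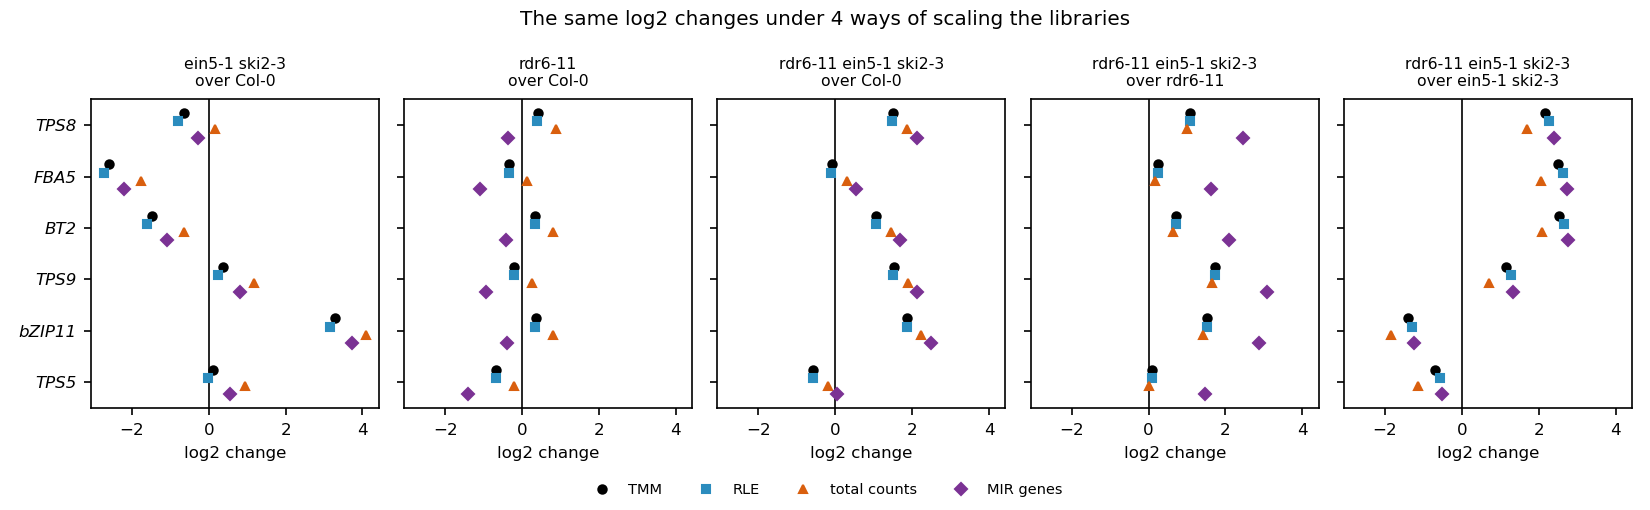
Log2 change of the same 6 genes in 5 comparisons when libraries were scaled by TMM, RLE, total counts or the summed counts of MIR genes (symbols). All 4 scalings put TPS8, FBA5 and BT2 above 0 in rdr6-11 ein5-1 ski2-3 over ein5-1 ski2-3, the comparison used to choose them. In rdr6-11 over Col-0, BT2 and TPS8 lay above 0 with TMM (0.34 and 0.41) and below 0 with MIR genes (-0.42 and -0.35).

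Other genes of the same pathways were taken from 8 lists with 58 genes, of which 17 passed the filter. In ein5-1 ski2-3 relative to Col-0, 5 rose and 3 fell, a share near the 49.3% of all genes called. In rdr6-11 relative to Col-0, 0 rose and 3 fell, against 36.6% of all genes. In rdr6-11 ein5-1 ski2-3, 6 rose relative to Col-0, against 18.3% of all genes, and 12 rose relative to rdr6-11, against 45.6%, with 0 lower in either. Some of the 17 passed the filter through genotypes where they were high: BT1 and FBA7 through the triple mutant, ProDH1 through ein5-1 ski2-3. EXL1 and bZIP2 passed it through ein5-1 ski2-3 and the triple mutant. These counts are therefore not read as a result about the lists. None of the 11 TPP and trehalase genes and none of the 10 SnRK1 subunit and sugar sensor genes passed the filter. TPS7 was the 1 tested gene of 6 other TPS genes, ASN2 the 1 tested of 2 other ASN genes, and neither was called in any of the 4 tested comparisons.

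Of 4 other BT genes 3 were tested, and 2 of these, BT1 and BT4, rose in rdr6-11 ein5-1 ski2-3 relative to both Col-0 and rdr6-11, against 18.3% and 45.6% of all genes called. BT5, the third tested, was not called, with means of 3.29 CPM in rdr6-11 ein5-1 ski2-3, 4.64 in ein5-1 ski2-3, 4.27 in rdr6-11 and 3.73 in Col-0. BT3 was not tested, and 0 of 3 were called in ein5-1 ski2-3 or in rdr6-11, each relative to Col-0. The median log2 change of the 3 in the triple mutant was 1.33 relative to Col-0 and 1.12 relative to rdr6-11, against 0.03 and 0.12 for all genes. BT1 passed the filter through the triple mutant, where it was high. The counts and medians are therefore not read as a result about the BT genes. BT4, a BTB and TAZ domain protein like BT2, had 29, 30 and 25 counts in rdr6-11 ein5-1 ski2-3, 14, 18 and 22 in ein5-1 ski2-3, 17, 13 and 11 in rdr6-11, and 9, 3 and 13 in Col-0. Its log2 change in the triple mutant was 1.33 ± 0.32 relative to Col-0 (edgeR adjusted p = 0.00109) and 1.12 ± 0.28 relative to rdr6-11 (0.00112). BT1 changed by 1.34 ± 0.48 (0.0433) and 1.26 ± 0.43 (0.0153). The call of BT1 relative to Col-0 was lost without Col-0 replicate 1 (0.114) or 3 (0.238), without rdr6-11 replicate 3 (0.0506), without triple mutant replicate 1 (0.0508) or 3 (0.236) and in DESeq2 (0.181), and that relative to rdr6-11 without rdr6-11 replicate 2 (0.139), without triple mutant replicate 3 (0.126) and in DESeq2 (0.0835). With no filter both calls of BT1 were lost (edgeR adjusted p = 0.0794 and 0.0564). The call relative to Col-0 was also lost without rRNA, tRNA and organelle genes (0.096).

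Among 8 other bZIP genes of groups C and S1, 2 were tested. bZIP2, a group S1 factor like bZIP11, had 19, 17 and 20 counts in rdr6-11 ein5-1 ski2-3, 83, 67 and 58 in ein5-1 ski2-3, 9, 7 and 9 in rdr6-11, and 5, 5 and 5 in Col-0. It rose in ein5-1 ski2-3 relative to Col-0 (log2 change 2.89 ± 0.30, edgeR adjusted p = 5.84e-12), in rdr6-11 ein5-1 ski2-3 relative to Col-0 (1.47 ± 0.37, 0.00204) and in rdr6-11 ein5-1 ski2-3 relative to rdr6-11 (1.24 ± 0.32, 0.00169), with all 3 calls kept under all 22 alternatives. The genotypes stood in the same order for bZIP2 as for bZIP11. Like bZIP11, bZIP2 passed the filter through ein5-1 ski2-3 and the triple mutant alone, where it was high. The alternatives reuse the same libraries, so the calls of bZIP2 and their being kept add no support for a change in the set. bZIP53, another group S1 factor, rose in ein5-1 ski2-3 relative to Col-0 (0.73 ± 0.31, 0.0442) and in the triple mutant relative to rdr6-11 (0.78 ± 0.31, 0.0350). These calls of bZIP53 were lost in 12 and 7 of 22 alternatives; DESeq2 gave 0.319 and 0.136, the first was lost without any 1 of the ein5-1 ski2-3 libraries (0.0549, 0.111 and 0.157), without Col-0 replicate 1 (0.123) or 3 (0.141) or without rdr6-11 replicate 2 (0.152), and the second without rdr6-11 replicate 1 (0.166) or 2 (0.145) or triple mutant replicate 2 (0.264) or 3 (0.0673).

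Of 10 starvation markers 4 were tested, and 3 rose in ein5-1 ski2-3 and in rdr6-11 ein5-1 ski2-3, each relative to Col-0, and 4 in rdr6-11 ein5-1 ski2-3 relative to rdr6-11, while 0 were called in rdr6-11 relative to Col-0. Of all genes, 49.3% were called in ein5-1 ski2-3 and 18.3% in rdr6-11 ein5-1 ski2-3, each relative to Col-0, 45.6% in rdr6-11 ein5-1 ski2-3 relative to rdr6-11, and 36.6% in rdr6-11. The median log2 change of the 4 was 2.29 in rdr6-11 ein5-1 ski2-3, 2.37 in ein5-1 ski2-3 and 0.67 in rdr6-11, each relative to Col-0, against 0.03, 0.29 and -0.01 for all genes. EXL1 and ProDH1 passed the filter only through genotypes without the decay factors, where they were high. The counts of calls and these medians are therefore not read as a result about starvation genes. DIN10, a raffinose synthase family gene induced in darkness, had 35, 47 and 61 counts in rdr6-11 ein5-1 ski2-3, 36, 31 and 56 in ein5-1 ski2-3, 14, 16 and 15 in rdr6-11, and 3, 7 and 10 in Col-0. EXL1, an EXORDIUM-like gene needed under carbon starvation, had 20, 39 and 39 counts in rdr6-11 ein5-1 ski2-3, 21, 16 and 22 in ein5-1 ski2-3, 7, 3 and 4 in rdr6-11, and 1, 0 and 3 in Col-0. For DIN10 and EXL1 the libraries of both genotypes without the decay factors were above all others. The markers below the filter did not all rise. DIN3, DIN4, DIN9 and DIN11 had lower means in both of these genotypes than in Col-0. In sum, DIN3 had 7 counts in rdr6-11 ein5-1 ski2-3, 6 in ein5-1 ski2-3 and 6 in Col-0. In the same order DIN4 had 4, 6 and 6, DIN9 had 1, 0 and 1, and DIN11 had 0, 4 and 10. The lower means of DIN3, DIN4 and DIN9 thus rested on few counts and are not read as a fall. DIN11 was at 0 CPM in rdr6-11 ein5-1 ski2-3, 0.348 in ein5-1 ski2-3 and 1.67 in Col-0. DIN2 was higher in ein5-1 ski2-3 than in Col-0 (2.29 against 1.20 CPM), and SEN1 had at most 2 counts in any library.

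The log2 change of EXL1 relative to Col-0 was 4.12 ± 0.49 in rdr6-11 ein5-1 ski2-3 (edgeR adjusted p = 1.65e-09) and 2.96 ± 0.57 in ein5-1 ski2-3 (2.00e-05). That of DIN10 was 2.41 ± 0.32 in rdr6-11 ein5-1 ski2-3 (1.97e-08) and 1.79 ± 0.34 in ein5-1 ski2-3 (1.48e-05). ProDH1, the proline dehydrogenase gene that S1 factors activate, had 8, 4 and 7 counts in rdr6-11 ein5-1 ski2-3, 15, 20 and 16 in ein5-1 ski2-3, 3, 2 and 2 in rdr6-11, and 0, 0 and 3 in Col-0. The ratio of ProDH1 to Col-0 was 4.76 in rdr6-11 ein5-1 ski2-3, with a 95% counting interval of 1.40 to 25.1, and 9.41 in ein5-1 ski2-3, with an interval of 3.04 to 47.1. ProDH1 was called in ein5-1 ski2-3 (edgeR adjusted p = 6.56e-05) and in rdr6-11 ein5-1 ski2-3 relative to Col-0 (0.0423) and to rdr6-11 (0.0468). The 2 calls of ProDH1 in rdr6-11 ein5-1 ski2-3 were lost in DESeq2 (0.155 and 0.131) and with no filter (edgeR, 0.0978 and 0.172). They were also lost without triple mutant replicate 1 (0.131 and 0.141) or 3 (0.0927 and 0.104). Without ein5-1 ski2-3 replicate 3, which left 1 sample of that genotype, the log2 changes were 2.15 and 1.48. The first call was also lost without Col-0 replicate 1 (0.213) or 2 (0.169) and without rRNA, tRNA and organelle genes (0.081). The second was also lost without rdr6-11 replicate 1 (0.0587), 2 (0.120) or 3 (0.115) and with total count scaling (0.0688).

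**Figure D4:**
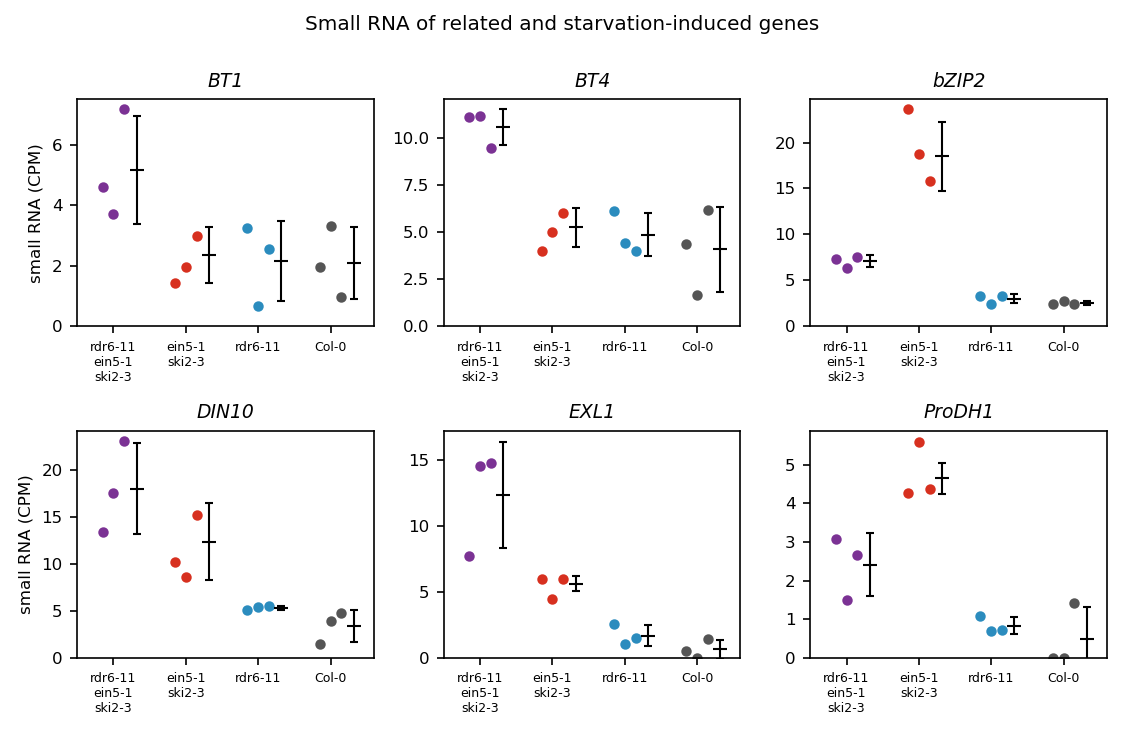
Small RNA level (CPM, vertical axis from 0, own scale for each gene) of 6 genes related to BT2 or bZIP11 or induced by starvation, in the 3 libraries of each genotype (points) with the mean ± SD over samples (bars; replicates 1 and 2 of ein5-1 ski2-3 count as 1 sample). BT1 and BT4 had their highest means in rdr6-11 ein5-1 ski2-3, at 5.18 and 10.6 CPM, and bZIP2 and ProDH1 in ein5-1 ski2-3, at 18.5 and 4.65 CPM.

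Of 7 other aldolase genes 6 were tested, and 3 fell in ein5-1 ski2-3 and 3 in rdr6-11, each relative to Col-0, while 4 rose in rdr6-11 ein5-1 ski2-3 relative to rdr6-11. Of all genes, 49.3%, 36.6% and 45.6% were called in these comparisons. FBA7, 1 of the 4 that rose, passed the filter through the triple mutant, where it was high. That count is therefore not read as a result about the aldolase genes. With TMM scaling the leaf markers had the same directions: 3 of 3 were lower in ein5-1 ski2-3 and in rdr6-11, each relative to Col-0, and 3 of 3 were higher in rdr6-11 ein5-1 ski2-3 relative to rdr6-11; their part in the aldolase values was not tested. The plastid aldolase gene FBA2 had 131, 143 and 158 counts in rdr6-11 ein5-1 ski2-3, 142, 120 and 147 in ein5-1 ski2-3, 106, 119 and 99 in rdr6-11, and 120, 102 and 115 in Col-0. FBA2 changed by -0.56 ± 0.14 in ein5-1 ski2-3 (edgeR adjusted p = 0.000521), FBA1 by -0.56 ± 0.19 (0.0120) and FBA8 by -0.56 ± 0.20 (0.0191), and with total count scaling these 3 changes turned to 0.26, 0.27 and 0.27. The changes were smaller in size than the -2.60 of FBA5; that difference was not tested. Scaling to MIR genes ended the calls of FBA2 (-0.08, edgeR adjusted p = 0.734), FBA1 (-0.08, 0.791) and FBA8 (-0.11, 0.72). With no filter the calls of FBA1 (0.116) and FBA8 (0.169) were lost. The call of FBA1 was also lost without Col-0 replicate 3 (0.107) or ein5-1 ski2-3 replicate 1 (0.0519), and that of FBA8 without Col-0 replicate 2 (0.137). In rdr6-11, FBA1 changed by -0.87 ± 0.20 (0.000327), FBA8 by -0.74 ± 0.21 (0.00362) and FBA2 by -0.56 ± 0.13 (0.000551) relative to Col-0, calls that scaling to total counts ended (0.115, 0.358 and 0.645). The call of FBA8 in rdr6-11 was also lost with no filter (0.0587). In rdr6-11 ein5-1 ski2-3 relative to rdr6-11, FBA1 rose by 0.91 ± 0.19 (0.000105) and FBA2 by 0.51 ± 0.13 (0.00129) under all alternatives. FBA7 rose by 0.91 ± 0.38 (0.0479), a call lost in 14 of 22 alternatives, among them DESeq2 (0.173) and leaving out any 1 rdr6-11 library (0.172, 0.0961 and 0.0522) or any 1 triple mutant library (0.0906, 0.0507 and 0.147), Col-0 replicate 2 (0.0509) or 3 (0.0512) or ein5-1 ski2-3 replicate 3 (0.0531).

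Genes with the most similar profile over the 11 samples were ranked by Pearson correlation of log2(CPM + 1), a description in which samples share their genotype. Nearest to TPS8 were FLA13 (r = 0.940), FBA7 (0.873) and BBX14 (0.869). FLA13, which encodes a fasciclin-like arabinogalactan protein, had means of 13.1 CPM in rdr6-11 ein5-1 ski2-3, 4.99 in ein5-1 ski2-3, 6.54 in rdr6-11 and 5.94 in Col-0. Nearest to FBA5 were TIP2 (AT3G26520, a tonoplast aquaporin, r = 0.962) and the chloroplast loci ATCG01110 (0.954) and ATCG00730 (0.942). Nearest to BT2 were P40 (0.903), CAS1, the cycloartenol synthase gene (0.894), and AT5G02870 (0.879). Among these 9 genes, FBA7 alone came from the pathway lists.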

How the data were processed

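Small RNA reads were counted per gene in 12 libraries, 3 for each of 4 genotypes. The deposited counts are whole, unnormalised read counts per gene, per the file headers. The signal values the authors deposited beside them are group means of normalised counts, their fold columns are ratios of those means, and their p-values belong to the same comparisons; the deposited p-values were not used. Per the submitters' processing notes, the processing used the TAIR10 build, Bowtie, Bowtie2, DESeq and CASAVA 1.8.2; the handling of reads with several matches is not given in the sources used here. Gene positions, names and sequences came from RefSeq TAIR10.1, in which 30403 of 30926 gene IDs matched.

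From the counts, edgeR 4.0.16 in R 4.3.3 was run with filterByExpr (minimum count 10, minimum total 15; 7219 genes), TMM scaling and 2-sided quasi-likelihood F tests over 11 samples, and a gene was called when its Benjamini-Hochberg adjusted p, taken over every gene tested, was under 0.05. The filter asks for about 3.68 CPM in 2 samples, so a gene can pass through 1 genotype. Replicates 1 and 2 of ein5-1 ski2-3 were summed because their mean chi-square per gene was 1.02 over 7365 protein-coding genes (1.04 over all genes, against 3.37 and 3.28 for the other pairs of that genotype). For Col-0, replicates 2 and 3 stayed separate, since their mean was 1.33 over all genes (1.01 over protein-coding ones). p-values measure the spread between these samples, estimated in 1 fit over the 4 genotypes. Over protein-coding genes this spread was near counting noise in some pairs kept separate, as for triple mutant replicates 2 and 3 (mean 1.04). The p-values may therefore reflect little more than counting error. Total counts of 2358724 to 2909767 per library limit the precision of genes with few counts, and counting intervals (exact binomial, 95%) cover counting error only.

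The members, the 8 gene lists and the markers were chosen with earlier results of these data known. Named genes were the 9 members, list genes called in a tested comparison (at most 3 per list and comparison, by size of change), and the 3 genes nearest in profile to TPS8, FBA5 and BT2. Other scalings, DESeq2 1.42.0, other filters, a replicate block and leaving out each library were tried as alternatives, 22 in all.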

Additional observations from a re-analysis of the deposited data

Results flagged for a closer look

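BT2 was the 1 member whose libraries separated in opposite directions when the decay factors were lost in the presence and in the absence of RDR6. On the CPM scale, all libraries of rdr6-11 ein5-1 ski2-3 were above all of rdr6-11 (65, 74 and 53 raw counts against 48, 28 and 48), and all of ein5-1 ski2-3 were below all of Col-0 (19, 15 and 11 raw counts, against 24, 19 and 26, with 1 tie before scaling). The log2 change was 0.72 ± 0.19 (SE) without RDR6 and -1.47 ± 0.30 with RDR6, a difference of 2.19. The difference was not tested, because BT2 was chosen on these values. TPS8 (1.09 without and -0.66 with RDR6) and FBA5 (0.24 and -2.60) also had opposite signs, but their libraries overlapped in 1 of the 2 comparisons: ein5-1 ski2-3 with Col-0 for TPS8, and rdr6-11 ein5-1 ski2-3 with rdr6-11 for FBA5.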

How the results depend on the processing

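The members' log2 changes were recomputed under 22 alternatives. The number of members called in ein5-1 ski2-3 relative to Col-0 was 1, and became 2 with total counts and 2 with no filter (ASN1 then entered at 2.63, adjusted p = 0.0186). In rdr6-11 relative to Col-0 it was 0, and became 2 with total counts and 2 with MIR gene scaling; leaving out 1 library gave 0 to 1. In rdr6-11 ein5-1 ski2-3 relative to Col-0 it was 2, and became 1 without rRNA, tRNA and organelle genes, 0 in DESeq2, 1 with no filter, 1 with 12 libraries apart and 0 with only the 2 groups compared, where TPS9, TPS5 and bZIP11 fell under the filter; leaving out 1 library gave 0 to 2. In rdr6-11 ein5-1 ski2-3 relative to rdr6-11 it was 2, and became 1 in DESeq2, 1 with 12 libraries apart and 0 with only the 2 groups compared, for the same reason; leaving out 1 library gave 1 to 2. TPS9 fell under the filter with 12 libraries apart and without ein5-1 ski2-3 replicate 1 or 2.

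Some log2 changes that were not called changed sign; the cause was not tested. For TPS5 in ein5-1 ski2-3 relative to Col-0 the value was -0.0124 with RLE factors, -0.0579 without rRNA, tRNA and organelle genes, -0.0005 in DESeq2, -0.12 in a fit of these 2 genotypes, -0.0145 with ein5-1 ski2-3 replicates 1 and 2 both left out, and -0.17 to 0.43 leaving out 1 library. TPS9 in the same comparison ranged from -0.0851 to 0.43 leaving out 1 library, and it was positive under the other alternatives in which it was tested, at up to 1.18 with total counts. In rdr6-11 relative to Col-0, MIR gene scaling gave -0.35 for TPS8, -0.42 for BT2 and -0.38 for bZIP11, and total counts gave 0.25 for TPS9 and 0.13 for FBA5; leaving out 1 library, TPS9 ranged from -0.74 to 0.14 and bZIP11 from -0.48 to 0.82. For TPS5 in rdr6-11 ein5-1 ski2-3, MIR gene scaling gave 0.0431 relative to Col-0, and relative to rdr6-11 no filter gave -0.013 and leaving out 1 library -0.20 to 0.33.

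Replicate numbers did not pair libraries: the correlation of deviations in 18 same-numbered pairs was -0.113 to 0.047. With the replicate block and 12 libraries apart, 1 member was called in each triple mutant comparison, as with 12 libraries apart and no block. Over all genes, calls in rdr6-11 ein5-1 ski2-3 relative to Col-0 numbered 1322, and MIR gene scaling and removal of rRNA, tRNA and organelle genes gave 2637 and 793; relative to rdr6-11 they numbered 3291, with 5434 under MIR gene scaling and 2058 in DESeq2. The members' low counts limit every one of these calls.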
